A study of Mus musculus with 10 samples.

Results

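MHC class II genes were examined in regenerating skeletal muscle of mice with and without miR-501. The 9 genes were chosen by name, as the chains of the class II molecule, its invariant chain, its transactivator and its peptide loading factors, and make up 9 of the 25700 genes counted. They are the chain genes *H2-Aa*, *H2-Ab1* and *H2-Eb1*, the invariant chain gene *Cd74*, the transactivator gene *Ciita*, the peptide exchange genes *H2-DMa*, *H2-DMb1* and *H2-DMb2*, and *H2-Oa*, which encodes a chain of the exchange inhibitor. Tibialis anterior (TA) muscle was taken from 5 Pax7Cre and 5 miR-501KO mice 6 days after an injection of cardiotoxin (CTX), a snake toxin that lyses myofibers and starts regeneration. All mice were C57BL/6 males of 12 weeks that carried Pax7Cre, a Cre recombinase that needs no inducing drug and acts in Pax7-expressing cells and their descendants. In the miR-501KO mice the floxed miR-501 allele on the X chromosome (miR-501fl/Y) is deleted by that Cre, so cells outside the Pax7 lineage keep it, whereas the genotype label reads miR-501 -/-, and that of the Pax7Cre littermates wild type. The miRNA gene itself is not among the genes counted, so its deletion was not checked in these libraries. RNA was taken from whole muscle, in which fewer cells of a type and less RNA per cell cannot be told apart.

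A class II molecule is a pair of an alpha and a beta chain that presents peptides from endocytosed proteins to CD4+ T cells. The chains assemble in the endoplasmic reticulum around the invariant chain, which blocks the groove and is later cut by lysosomal proteases, and the DM molecule then exchanges its last fragment for a peptide while the DO molecule restrains DM. CIITA switches these genes on together by binding factors that sit on short promoter elements called the X and Y boxes, and interferon gamma induces it in many cells. Dendritic cells, B cells and activated macrophages are the usual sources, and injured muscle is filled with macrophages during its first week of repair. C57BL/6 mice carry the b haplotype, in which the partner chain of *H2-Eb1* is not expressed, so the *H2-Eb1* transcript is not matched by a complete molecule at the surface. CD74 also serves as a receptor for the cytokine MIF, and the study is concerned with myogenic progenitors marked by CD74 in muscle without miR-501. The question addressed here is how the class II genes stood in the whole muscle of both genotypes.

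The promoters are shown because they carry the elements through which the class II genes are known to be switched on together. RefSeq windows from 250 bases before to 50 bases after a gene start on build GRCm38.p6 were found for 6 of the 9 genes, and *H2-Ab1*, *Ciita* and *Cd74* had none. Both strands were searched for the Y box core, CCAAT, which reads ATTGG on the other strand, and for a relaxed form of the X1 box in which some bases are left free. The motifs do not overlap where both are found. Below, 75 bases of 5 genes are aligned at their Y box core, each 5′ to 3′ on the strand of the gene, with matches to either motif that lie whole within the stretch in capitals.

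H2-Eb1 (chr17:34305758-34305832, plus strand): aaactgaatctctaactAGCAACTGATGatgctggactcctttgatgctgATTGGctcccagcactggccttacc
H2-DMb1 (chr17:34153080-34153154, plus strand): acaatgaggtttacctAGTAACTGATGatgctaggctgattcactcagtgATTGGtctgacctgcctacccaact
H2-DMb2 (chr17:34145109-34145183, plus strand): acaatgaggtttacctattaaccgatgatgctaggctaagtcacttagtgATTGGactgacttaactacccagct
H2-Aa (chr17:34287847-34287921, minus strand): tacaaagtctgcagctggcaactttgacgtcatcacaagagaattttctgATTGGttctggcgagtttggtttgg
H2-Oa (chr17:34092286-34092360, plus strand): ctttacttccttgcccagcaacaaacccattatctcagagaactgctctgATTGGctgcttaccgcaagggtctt

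The stretches were cut around the Y box core, so that all 5 hold it follows from how they were made. Among the whole windows of 300 bases it is in 37.4% of 32851. *H2-Eb1* and *H2-DMb1* also hold the relaxed X1 box, 22 and 23 bases before the Y box core. The window of *H2-Eb1* holds a second Y box core on the other strand, 46 bases after the X1 box, of which the stretch shows only the first base. *H2-Oa* holds the relaxed X1 box 87 bases before its Y box core, outside the stretch shown. The relaxed X1 box is in 0.968% of all windows of 300 bases, and both motifs together are in 0.387%. *H2-DMb2* is the same as *H2-DMb1* at 65 of the 75 bases. The substitutions G18T and T23C, counted from the first base shown with the base of *H2-DMb1* first, fall at the place of the X1 box. G18T changes a fixed base of the relaxed form, and T23C a base that is left free. *H2-DMa* has 2 windows, at alternative starts, of which 1 holds the Y box core and none the X1 box. These matches describe letters and not bound sites.

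In GENCODE release M21 for GRCm38, the 7 *H2* genes lie on chromosome 17 between 34092340, the start of *H2-Oa*, and 34316674, the end of *H2-Eb1*. *Ciita* lies on chromosome 16 from 10480059 to 10528418, and *Cd74* on chromosome 18 from 60803848 to 60812652, both on the plus strand. *H2-DMb1* and *H2-DMb2* are neighbours that share exact sequence: 179 of the 1579 different 100-base stretches of the *H2-DMb1* transcripts also occur in *H2-DMb2*, so reads there could have been split between them. The other 7 genes shared no such stretch with another gene. Exons of *H2-DMa* overlap those of *Brd2*, and exons of *Ciita* those of *Dexi*, each on the opposite strand.

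Each mouse gave between 18609222 and 24753258 counts, 14410 genes passed the filter on low counts, and all 9 class II genes did. Mitochondrial genes held between 6.59% and 14.0% of the counts, with the highest share in Pax7Cre mouse 2 and the lowest in Pax7Cre mouse 4. Pax7Cre mice 2 and 4 stood apart from the other libraries. Mature fiber markers summed to 69719 CPM in mouse 2 and to 24616 CPM in mouse 4, beside 40351 to 44503 in the other Pax7Cre mice and 42639 to 53888 in miR-501KO mice. The macrophage markers of mouse 2, at 5321 CPM, were the lowest of all 10. CPM are counts scaled to library size with edgeR's TMM factors, and results that rest on either mouse are given with and without it.

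Class II transcripts were abundant in the injured muscle. Together the 9 genes summed to between 2073 and 3958 CPM. To compare genes with each other, CPM was divided by the merged length of all annotated exons of a gene in kilobases, written as FPKM. *Cd74* had a mean of 670 FPKM over the 10 mice and ranked 49 among the genes tested, ahead of *H2-Eb1* (238), *H2-Aa* (199) and *H2-Ab1* (167). The peptide exchange genes were lower, with a mean of 25.5 FPKM for *H2-DMb1* and 12.0 FPKM for *H2-DMa*. In each of the 10 mice these 6 genes kept this order. Exon length sets part of this order, since *H2-Aa* had 754 CPM over 3798 bases and *H2-Eb1* 462 CPM over 1944 bases. *H2-DMa* had 41.3 CPM over 3448 bases and *H2-DMb1* 42.9 CPM over 1681 bases. *Ciita* (2.77 FPKM), *H2-DMb2* (2.62) and *H2-Oa* (2.58) came last and were not separated, since *Ciita* was above *H2-DMb2* in 5 of 10 mice and *H2-DMb2* above *H2-Oa* in 7 of 10. Thus *Cd74* exceeded the transactivator 242-fold per length, with exon lengths of 1679 and 9535 bases, and *H2-DMb1* exceeded its neighbour *H2-DMb2* 9.72-fold.

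**Figure D1:**
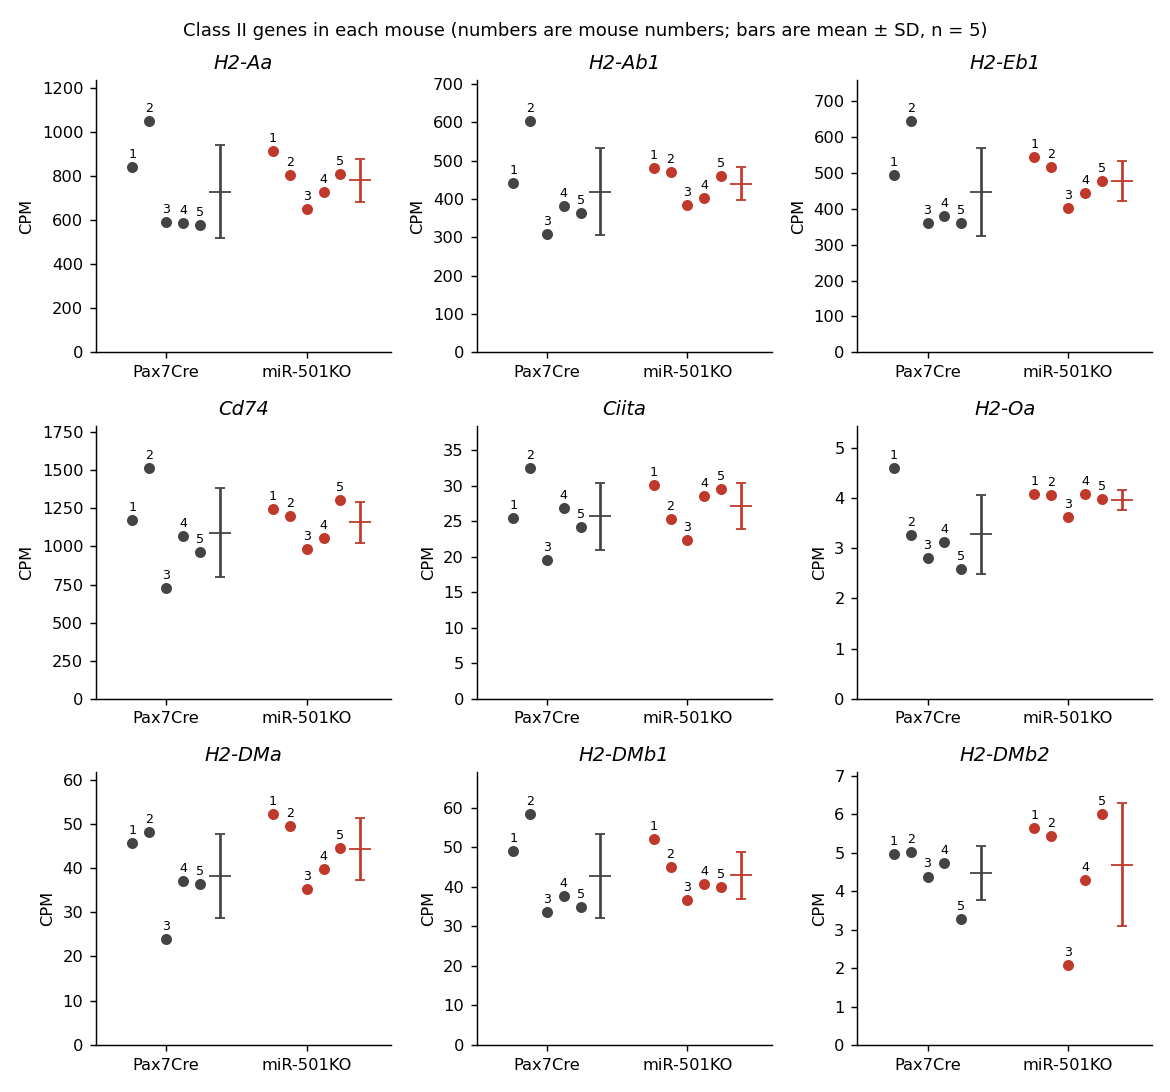
Normalized counts (CPM, vertical axis from 0) of the 9 class II genes in each mouse, with 1 panel a gene, Pax7Cre in grey and miR-501KO in red. Points carry the mouse number and bars give mean ± SD (n = 5). The groups overlap in each panel, and Pax7Cre mouse 2 is the highest of all mice for *H2-Aa*, *H2-Ab1*, *H2-Eb1*, *Cd74*, *Ciita* and *H2-DMb1*.

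For the chains of the class II molecule, the genotypes overlapped and no difference was detected. *H2-Aa*, the alpha chain of the I-A molecule, stood at 841, 1047, 591, 588 and 578 CPM in Pax7Cre mice 1 to 5 and at 910.2, 803, 650.0, 727 and 808 CPM in miR-501KO mice 1 to 5. Pax7Cre mice 1 and 2 lay above the other 3, and the miR-501KO mice spread between the lowest and the highest of them. The log2 fold change, miR-501KO minus Pax7Cre, was 0.097 (standard error, SE, 0.174; 95% interval −0.28 to 0.47), and an exact two-sided permutation test gave p = 0.643. *H2-Ab1*, the I-A beta chain, stood at 441, 603, 308, 381 and 363 CPM in Pax7Cre mice and at 481, 470.4, 383, 404 and 461 CPM in miR-501KO mice. Pax7Cre mouse 2 was the highest and Pax7Cre mouse 3 the lowest of the 10. The log2 fold change was 0.070 (SE 0.159, 95% interval −0.27 to 0.41, exact permutation p = 0.738). *H2-Eb1*, the I-E beta chain, stood at 494, 643, 360.5, 378 and 361 CPM in Pax7Cre mice and at 544, 516, 402, 443 and 477 CPM in miR-501KO mice. Here too 3 Pax7Cre mice were below all miR-501KO mice and Pax7Cre mouse 2 was above them. The log2 fold change was 0.091 (SE 0.164, 95% interval −0.26 to 0.45, exact permutation p = 0.659).

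*Cd74*, the invariant chain that guides class II molecules to endosomes, overlapped between the genotypes as well. It stood at 1175, 1518, 729, 1067 and 966 CPM in Pax7Cre mice and at 1246, 1201, 985, 1054 and 1304 CPM in miR-501KO mice. Pax7Cre mice 2 and 3 were the highest and the lowest of all mice, and the 5 miR-501KO mice lay between them. Means were 1091 ± 290.1 CPM in Pax7Cre and 1158 ± 134 CPM in miR-501KO mice (SD, n = 5 each). The log2 fold change of 0.086 was smaller than its SE, 0.172, and the exact two-sided permutation test gave p = 0.635. Its 95% interval, −0.29 to 0.46, corresponds to between 0.820 and 1.37 times the Pax7Cre level.

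*Ciita*, the transactivator that sets class II transcription, was measured from 369 to 752 counts per mouse. It stood at 25.4, 32.6, 19.5, 26.9 and 24.1 CPM in Pax7Cre mice and at 30.1, 25.3, 22.4, 28.6 and 29.5 CPM in miR-501KO mice. As for *Cd74*, the extremes were Pax7Cre mice 2 and 3. The log2 fold change was 0.080 (SE 0.126, 95% interval −0.19 to 0.35, exact permutation p = 0.579).

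Among the peptide exchange genes, *H2-DMa*, the alpha chain of DM, stood at 45.7, 48.2, 23.9, 37.0 and 36.4 CPM in Pax7Cre mice and at 52.3, 49.6, 35.3, 39.7 and 44.5 CPM in miR-501KO mice. The genotypes overlapped, with 2 miR-501KO mice above all Pax7Cre mice and Pax7Cre mouse 3 below all others. Its log2 fold change was 0.21 (SE 0.167, 95% interval −0.15 to 0.57, exact permutation p = 0.286), and without Pax7Cre mouse 3 it was 0.084. *H2-DMb1*, the more abundant beta chain of DM, stood at 49.2, 58.5, 33.6, 37.6 and 34.9 CPM and at 52.2, 45.2, 36.7, 40.8 and 40.1 CPM, and its log2 fold change was 0.0083 (SE 0.152). The exact permutation p was 0.984, and the 95% interval ran from 0.800 to 1.26 times the Pax7Cre level. *H2-DMb2*, the second beta chain, had between 50 and 142 counts per mouse and is less precise. It ranged from 3.28 to 5.01 CPM in Pax7Cre and from 2.08 to 6.02 CPM in miR-501KO mice, where mouse 3 was the lowest of all 10 (log2 fold change 0.067, SE 0.241, exact permutation p = 0.786).

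*H2-Oa*, the alpha chain of the exchange inhibitor DO, had the largest fold change of the 9 genes. It stood at 4.61, 3.27, 2.80, 3.13 and 2.60 CPM in Pax7Cre mice and at 4.08, 4.06, 3.62, 4.08 and 3.98 CPM in miR-501KO mice, from 53 to 103 counts per mouse. All 5 miR-501KO mice lay above 4 of the 5 Pax7Cre mice and below Pax7Cre mouse 1. The log2 fold change was 0.27 (SE 0.160, 95% interval −0.077 to 0.61, exact permutation p = 0.111, edgeR unadjusted p = 0.116). Without Pax7Cre mouse 1 it was 0.43 (edgeR unadjusted p = 0.00772), and the adjusted p was 1.00 in both fits.

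Over the 9 genes, 0 had an adjusted p under 0.05 in edgeR's quasi-likelihood test, as for 0% of the 14410 genes tested, and each adjusted p was 1.00. At an unadjusted p under 0.05, 0 of the 9 were higher or lower, beside 0.382% of all genes tested that were higher, 0.666% that were lower and 1.05% in either direction. DESeq2's Wald test likewise gave 0 of 9 at an unadjusted p under 0.05. The groups overlapped for all 9, and were apart for 0.139% of all genes. All 9 log2 fold changes were above 0, beside 47.9% of all genes tested, with a median of 0.086 beside −0.0042 over all genes. Most of the genes varied together from mouse to mouse, so these 9 signs are not separate observations. Without Pax7Cre mouse 3, 5 of the 9 were above 0, and that of *Cd74* was −0.027.

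Leaving out Pax7Cre mouse 2 raised 8 of the 9 fold changes. The median became 0.23 and all 9 were above 0, beside 48.8% of all genes. Leaving out 1 other mouse moved it both ways, from 0.024 without Pax7Cre mouse 5, 0.025 without Pax7Cre mouse 3 and 0.040 without miR-501KO mouse 1 to 0.15 without miR-501KO mouse 3. Without Pax7Cre mouse 4 it was 0.078, with 8 of the 9 above 0. In the fit without Pax7Cre mouse 2, *H2-Eb1* had the smallest unadjusted p of the 9, 0.0548 in edgeR. Its log2 fold change was 0.26 (95% interval −0.0061 to 0.52). For *Cd74* the log2 fold change in the same fit was 0.23 (95% interval −0.072 to 0.54). At an unadjusted p under 0.05 in that fit, 0 of the 9 were higher, beside 1.84% of all genes, and 0 lower, beside 1.28%. Its adjusted p-values were 1.00, with 0% of genes called.

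**Figure D2:**
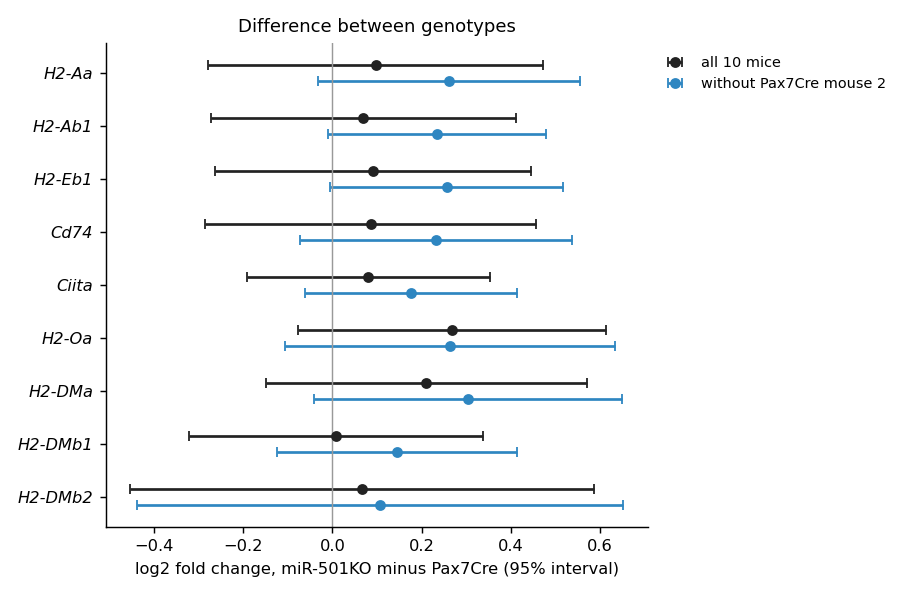
Log2 fold change of each class II gene, miR-501KO minus Pax7Cre (horizontal axis), with its 95% interval from edgeR, for all 10 mice in black and without Pax7Cre mouse 2 in blue. Each interval spans 0, and the median moves from 0.086 to 0.23.

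The spread between mice differed between the groups in these samples. The coefficient of variation of *Cd74* was 26.6% in Pax7Cre and 11.6% in miR-501KO mice, that of *H2-Ab1* 27.0% and 9.92%, and that of *H2-Oa* 24.1% and 4.93%. For *H2-DMb2* it was 15.9% and 34.0%. Single mice carried much of this spread. Without Pax7Cre mouse 2 the Pax7Cre value was 19.3% for *Cd74* and 14.7% for *H2-Ab1*. Without Pax7Cre mouse 1 that of *H2-Oa* was 10.4%, and without miR-501KO mouse 3 its miR-501KO value was 1.14%. For *H2-DMb2* the order of the groups rested on miR-501KO mouse 3, without which the miR-501KO value was 13.9%, and the Pax7Cre value without mouse 5 was 6.03%. Differences in spread were not tested.

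Ratios within a mouse do not depend on the scaling of the library. *Cd74* amounted to 0.662, 0.662, 0.579, 0.792 and 0.742 of the summed CPM of *H2-Aa*, *H2-Ab1* and *H2-Eb1* in Pax7Cre mice, and to 0.644, 0.671, 0.686, 0.670 and 0.746 in miR-501KO mice. The invariant chain thus stayed in a narrow proportion to the chains, also in Pax7Cre mouse 2, whose class II level was the highest. The log2 ratio was −0.55 ± 0.174 in Pax7Cre and −0.55 ± 0.079 in miR-501KO mice (SD, n = 5 each). The summed DM genes amounted to between 0.0487 and 0.0589 of the same chains in Pax7Cre and between 0.0516 and 0.0569 in miR-501KO mice. Against the summed macrophage markers, *Cd74* stood at 0.156, 0.285, 0.125, 0.167 and 0.169 in Pax7Cre mice and at 0.187, 0.183, 0.170, 0.188 and 0.219 in miR-501KO mice. Here all 5 miR-501KO mice lay above 4 of the Pax7Cre mice and below Pax7Cre mouse 2. The difference in mean log2 ratio was 0.12 with all mice, 0.30 without Pax7Cre mouse 2 and 0.0059 without Pax7Cre mouse 3. These ratios are given as values, without a test.

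**Figure D3:**
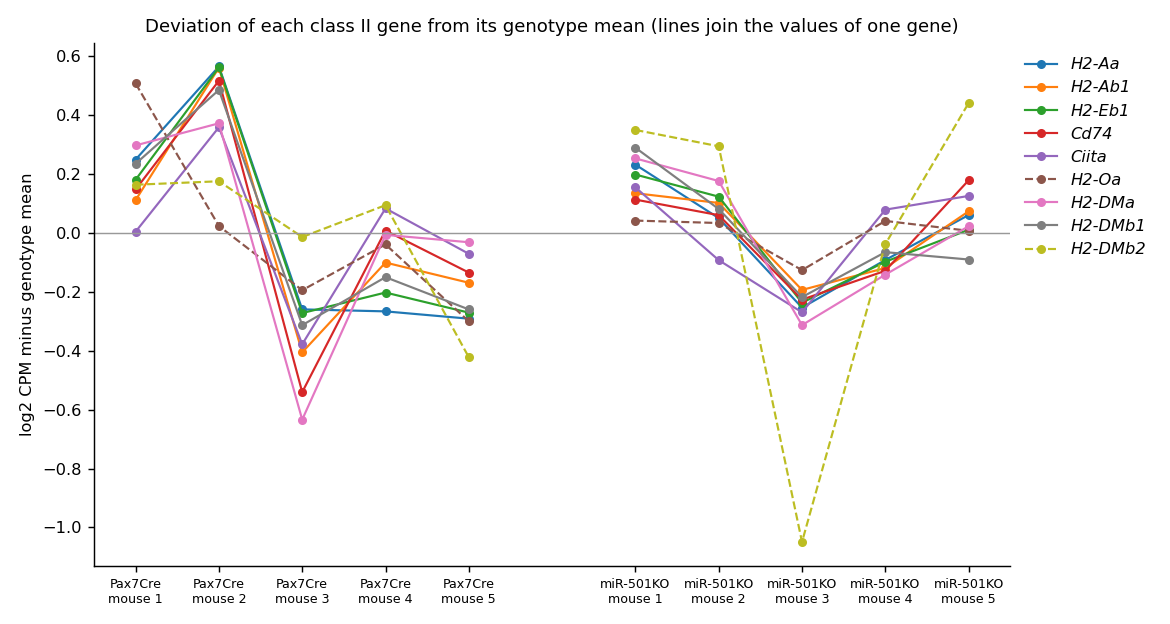
Log2 CPM of each class II gene minus the mean of its genotype (vertical axis) in each mouse (horizontal axis), with a line for each gene; mice have no order and the lines only join the values of a gene. *H2-DMb2* and *H2-Oa* (dashed) stray from the other 7, *H2-DMb2* most at miR-501KO mouse 3 and *H2-Oa* most at Pax7Cre mouse 2.

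Most of the class II genes varied together between mice of a genotype. Deviations from the genotype mean were correlated with those of *Cd74* over the 10 mice for 8 genes, with exact two-sided permutation within genotype and Benjamini-Hochberg adjustment over the 8. The chains followed *Cd74* closely, with r = 0.97 for *H2-Ab1* (Spearman's rho = 0.92, adjusted p = 0.00278 for r and 0.00569 for rho), r = 0.87 for *H2-Eb1* and r = 0.85 for *H2-Aa*. *H2-DMa* (r = 0.92), *Ciita* (r = 0.90) and *H2-DMb1* (r = 0.85) did so as well. For these 5 the permutation adjusted p of r was at most 0.00843 and that of rho at most 0.0149, with rho between 0.81 and 0.92. *H2-DMb2* had r = 0.50 (permutation adjusted p = 0.0505) and rho = 0.79 (permutation adjusted p = 0.00569), so its call depends on the measure. *H2-Oa* had r = 0.49 and rho = 0.61, with permutation adjusted p-values of 0.332 and 0.0801.

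Leaving out the 2 mice farthest from the median of each gene gave r = 0.94 for *H2-Ab1*, 0.85 for *H2-DMa*, 0.74 for *H2-Eb1*, 0.74 for *H2-DMb1*, 0.73 for *H2-Aa*, 0.65 for *Ciita*, 0.62 for *H2-DMb2* and 0.84 for *H2-Oa*. Without Pax7Cre mouse 2, the 6 genes with an adjusted p under 0.05 had r between 0.70 for *H2-Aa* and 0.96 for *H2-Ab1*, and of these *H2-Ab1* and *H2-DMa* kept an adjusted p under 0.05. All genes of a mouse come from 1 library, so the relations share its depth and scaling. The smallest p that these permutations can give is 6.94e-05.

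Most genes did not follow *Cd74*. Over the 13577 genes with a mean of at least 1 CPM, the median r with *Cd74* was 0.0073. *H2-Ab1* ranked first. The 8 genes outside the class II genes with the highest r were *Inpp5k* (0.95), *Arl4d* (0.95), *Klrb1f* (0.94), *Cd5* (0.93), *Itgal* (0.92), *Mapkapk2* (0.92), *Cilp2* (0.92) and *Tnfrsf4* (0.92). *Cd5* and *Tnfrsf4* (OX40) encode T cell surface proteins, *Klrb1f* a lectin-like receptor and *Itgal* the alpha chain of the leukocyte integrin LFA-1, whereas *Mapkapk2* encodes a stress kinase and *Inpp5k* an inositol phosphatase. Several were low, such as *Klrb1f* at a mean of 1.79 CPM and *Cd5* at 2.04 CPM. They were picked as the highest of many, so their r is a description with no test. Between genotypes their log2 fold changes lay between −0.24 for *Cilp2* and 0.10 for *Arl4d*.

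**Figure D4:**
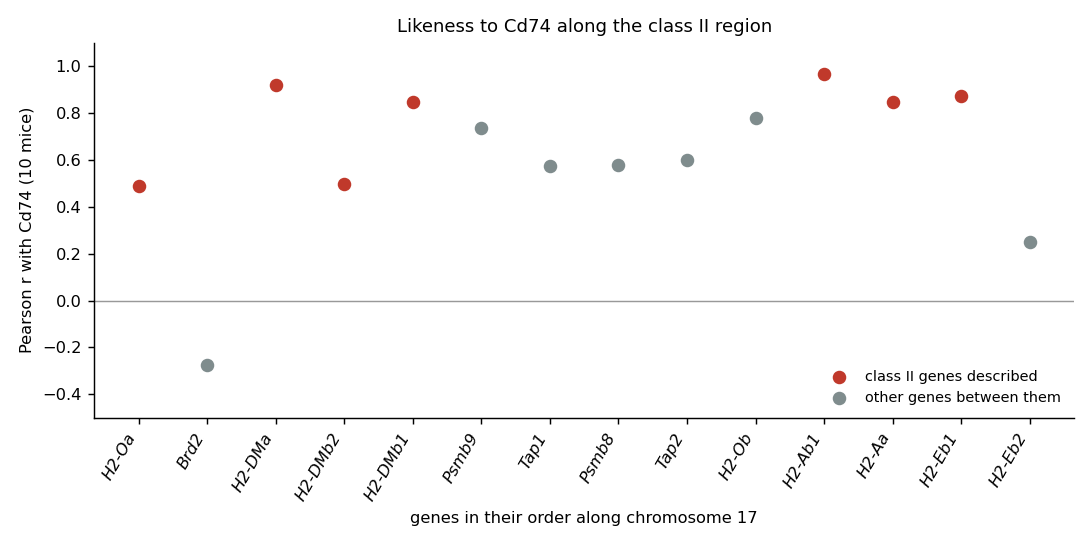
Pearson r with *Cd74* over the 10 mice (vertical axis, deviations from the genotype mean) for the genes tested that lie from *H2-Oa* to *H2-Eb2*, in their order along chromosome 17 (horizontal axis, not to scale). Red points are class II genes described here and grey points the others, of which *H2-Ob* is the highest at 0.78 and *Brd2* the lowest at −0.27.

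The class II region also holds genes of other pathways and the further class II chain genes *H2-Ob* and *H2-Eb2*, which were set beside the members. From *H2-Oa* to *H2-Eb2*, 7 of the class II genes and 7 others were tested. *Brd2*, a bromodomain gene that overlaps *H2-DMa*, had r = −0.27 with *Cd74*, beside 0.92 for *H2-DMa*. The immunoproteasome genes *Psmb9* and *Psmb8* had r = 0.74 and 0.58, and the peptide transporter genes *Tap1* and *Tap2* 0.58 and 0.60. *H2-Ob*, the beta chain of DO, had r = 0.78 and *H2-Eb2* r = 0.25. The median was 0.85 for the 7 class II genes and 0.58 for the 7 others, *H2-Ob* and *H2-Eb2* among them. These medians are a description over genes that are not independent.

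Other genes of the class II pathway were listed by role, and 0 had an adjusted p under 0.05 in edgeR. At an unadjusted p under 0.05, 0 of them were called in either direction, beside 1.05% of all genes tested. *H2-Ob*, with 4.55 ± 1.04 and 4.73 ± 0.663 CPM (SD, n = 5 each), and *H2-Eb2*, with 1.72 ± 0.241 and 1.98 ± 0.426 CPM, were the 2 further chains tested, with log2 fold changes of 0.054 and 0.20. *H2-Ea* was not analysed here. The 7 genes of the factors that bind the X and Y boxes (RFX, NF-Y and CREB) had log2 fold changes between −0.071 for *Nfya* and 0.034, with *Creb1* at 0.0018 and *Nfya* at −0.15 without Pax7Cre mouse 2 and −0.026 without Pax7Cre mouse 4, and their summed level lay between 173 and 186 CPM over all 10 mice. Single factors differed in how they varied with *Cd74* over the 10 mice, with r from −0.42 for *Nfya* to 0.87 for *Nfyc*, given as a description with no test. Of the genes from interferon gamma to *Ciita*, 8 of 9 were tested and 4 were above 0. *Jak1*, a kinase of the interferon gamma receptor, had a log2 fold change of −0.0054. *Ifng* itself had between 0 and 17 counts per mouse and did not pass the filter.

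Among the genes that cut the invariant chain, 7 of 8 were tested (*Ifi30* was not analysed here), with log2 fold changes between −0.057 and 0.041. *Sppl2a*, the protease that removes the last membrane stub of CD74, had 0.041, and *Ctsb*, a lysosomal cathepsin, −0.0075. Of 5 genes that govern class II turnover, 2 were above 0, namely *Cd83*, which protects class II from ubiquitination, at 0.25 (SE 0.152, edgeR unadjusted p = 0.118), and *Tmem176b*, a membrane protein of endosomes, at 0.030. *Cd83* without Pax7Cre mouse 2 had 0.40 (edgeR unadjusted p = 0.00641, adjusted p = 1.00). Of the genes for partners of CD74, 4 of 5 were tested and 3 were above 0. *Cd44*, the co-receptor of CD74, had 133 ± 27.2 CPM in Pax7Cre and 159 ± 18.9 CPM in miR-501KO mice (SD, n = 5 each). On the log2 scale this difference was 0.26 (SE 0.137), beside 0.17 without Pax7Cre mouse 2 and 0.35 without Pax7Cre mouse 4 (edgeR unadjusted p = 0.0197). All 10 MHC class I genes were tested, 8 were above 0 and their median was 0.073. *Tap1* had 0.21 (SE 0.185), or 0.018 without miR-501KO mouse 1, and *B2m*, the class I light chain, 0.014. Of the costimulatory genes, 5 of 6 were tested and 3 were above 0. *Cd274* (PD-L1) had 0.22 (SE 0.244) and *Cd86* 0.097 (SE 0.117). Median log2 fold changes were 0.13 for the further chains, −0.0048 for the X and Y box factors, 0.011 from interferon gamma to *Ciita*, −2.2e-05 for invariant chain processing, −0.035 for turnover, 0.090 for CD74 partners and 0.097 for costimulation, beside −0.0042 over all genes tested. Without miR-501KO mouse 1 that of costimulation was −0.057 and that of MHC class I −0.012.

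Cell type markers were summed in each mouse, since class II transcripts can come from several kinds of cells. Macrophage markers (15 of 15 tested) summed to 5321 to 7525 CPM in Pax7Cre and 5594 to 6654 CPM in miR-501KO mice. Of the 15, 10 had a log2 fold change above 0 and 0 had an unadjusted p under 0.05, with *Lyz2* at −0.023 and *Mrc1* at −0.22. Without Pax7Cre mouse 2, 3 of the 15 were above 0, and *Mrc1* had −0.28 (edgeR unadjusted p = 0.0203, 1 of 15 on the lower side, beside 1.28% of all genes tested). *Mrc1* was at an unadjusted p under 0.05 without Pax7Cre mouse 5 as well. Dendritic cell markers (12 of 13 tested) summed to 165 to 208 CPM and 153 to 194 CPM. In this list *Clec10a*, a lectin of conventional dendritic cells and some macrophages, had 25.8 ± 3.26 CPM in Pax7Cre and 20.3 ± 1.17 CPM in miR-501KO mice (SD, n = 5 each). Its log2 fold change was −0.35 (SE 0.0928, exact permutation p = 0.0238, edgeR unadjusted p = 0.00264, adjusted p = 1.00), so it did not pass the adjusted test. *Cd209a*, another lectin, had −0.37 (SE 0.148, exact permutation p = 0.0714), and *Itgax* (CD11c) 0.11 (SE 0.101). These 2 of 12 markers at an unadjusted p under 0.05 were on the lower side, beside 0.666% of all genes tested, while all 9 class II genes had values above 0. Without Pax7Cre mouse 2, 1 of the 12 was on the lower side at that p.

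Lymphocyte markers were scarce. Of 11 B cell markers, 5 passed the filter. The defining marker *Ms4a1* (CD20) had 2 to 10 counts per mouse, and the sum of the list, 29.8 to 31.8 CPM in Pax7Cre and 26.4 to 36.0 CPM in miR-501KO mice, came mostly from *Cd22* at a mean of 21.3 CPM. *Cd22* and *Cd79b* had log2 fold changes of 0.0032 and 0.21. T cell markers (10 of 10 tested) summed to 49.9 to 84.1 CPM and 43.3 to 69.3 CPM, with *Cd4* at −0.20 (SE 0.122). Plasma cell markers (4 of 6 tested) summed to 39.3 to 71.1 CPM and 53.8 to 65.8 CPM. *Jchain*, with 8 to 52 counts per mouse, had a log2 fold change of 0.98 (SE 0.378, exact permutation p = 0.0794, edgeR unadjusted p = 0.0227, adjusted p = 1.00) and *Sdc1* 0.051. Myogenic markers, namely *Pax7* and *Myf5* of stem cells, *Myod1* of activated cells, and *Myog*, *Mymk*, *Mymx*, *Cdkn1c* and *Tnnt2* of cells on the way to fibers, summed to 862 to 1297 CPM in Pax7Cre and 1068 to 1210.4 CPM in miR-501KO mice, with *Cdkn1c* at −0.079 and *Tnnt2* at 0.051. Among the mature fiber markers *Myh1* had 0.34 (SE 0.240) and *Mylpf* 0.038. All 8 genes of each of these 2 lists were tested and 0 had an unadjusted p under 0.05, beside 1.05% of all genes tested. Without Pax7Cre mouse 2, 3 of the 8 mature fiber markers were higher at that p, beside 1.84% of all genes tested, and *Myh1* had 0.58 (edgeR unadjusted p = 0.00860). Median log2 fold changes were 0.016 for macrophage, 0.0018 for dendritic cell, 0.0032 for B cell, 0.056 for T cell, 0.38 for plasma cell, 0.030 for myogenic and 0.055 for mature fiber markers. Without Pax7Cre mouse 2 these medians were, in the same order, −0.040, 0.099, 0.019, 0.25, 0.25, −0.060 and 0.32. The T cell markers then had 9 of 10 above 0, and the mature fiber markers 8 of 8. Without Pax7Cre mouse 4 the median of the mature fiber markers was −0.10, and without Pax7Cre mouse 3 that of the T cell markers was −0.023.

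**Figure D5:**
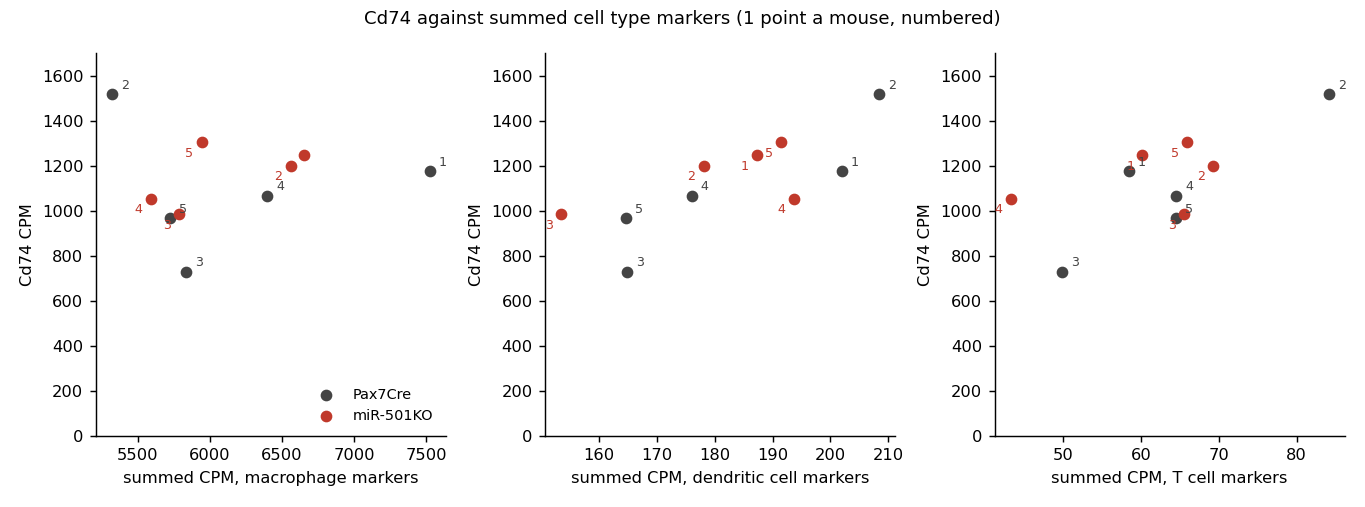
*Cd74* (CPM, vertical axis from 0) against the summed CPM of macrophage, dendritic cell and T cell markers (horizontal axes, not from 0) with 1 numbered point a mouse, Pax7Cre in grey and miR-501KO in red. Pax7Cre mouse 2 has the highest *Cd74* with the lowest macrophage sum, 5321 CPM, and the highest dendritic and T cell sums, 208 and 84.1 CPM.

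*Cd74* was then set against the 7 marker sums over the 10 mice, in the same way as against the class II genes. With the dendritic cell markers r was 0.78 (permutation adjusted p = 0.0452 over 7 lists) and rho 0.82 (permutation adjusted p = 0.115), and leaving out the 2 mice farthest from the median gave r = 0.61. Removing single mice in turn lost this call for 8 of 10, with r from 0.69 without Pax7Cre mouse 2 to 0.87 without miR-501KO mouse 4. It was lost too without removal of genotype means (r = 0.75) and with library size scaling only (r = 0.71). *Itgax*, at a mean of 73.4 CPM the most abundant gene of the dendritic cell sum, had r = 0.71 by itself. The other tested genes of that list ranged from −0.26 to 0.82, with *Clec10a* at 0.29 and *Cd209a* at 0.28, given as a description. With the T cell markers r was 0.68 and rho 0.49 (permutation adjusted p = 0.149 and 0.630), and with the B cell markers r was 0.24 and rho 0.21. *Cd4*, at a mean of 32.7 CPM the most abundant gene of the T cell sum, had r = 0.19 by itself, and the other 9 ranged from 0.31 for *Cd8b1* to 0.88 for *Trac*, given as a description. With the macrophage markers r was 0.099 and rho 0.21 (permutation adjusted p = 0.842 and 0.999), and without Pax7Cre mouse 2 r was 0.71 (unadjusted permutation p = 0.0806). The highest *Cd74* thus occurred in the mouse with the lowest macrophage sum. Plasma cell (r = −0.42, rho = −0.12), myogenic (r = −0.43, rho = 0.0061) and mature fiber markers (r = 0.36, rho = 0.079) changed sign without Pax7Cre mouse 2, to r = 0.44, 0.57 and −0.33. The plasma cell sum came mostly from *Sdc1*, at a mean of 54.8 CPM, which had r = −0.44, while *Jchain* had 0.52, *Mzb1* −0.49 and *Pou2af1* −0.30. Which cells gave the class II reads was not tested, and the part of any cell type in these values was not tested.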

How the data were processed

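RNA-seq of the TA muscle from 10 mice was read from the raw counts per gene that the authors deposited, 1 list per mouse. Libraries were stranded mRNA (TruSeq), read as 100-base single ends. Per the labels and methods, STAR, featureCounts, R 3.5.1, GRCm38.p5 and an annotation called ENCODE release 91 were named; the strand setting and the treatment of multiply mapped reads are not given in the sources used here. Ensembl identifiers of 25587 of 25700 genes were found in GENCODE M21, and 5846 genes had no read. Groups come from the sample titles, each mouse being a sample.

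The main test was edgeR 4.0.16 (R 4.3.3; quasi-likelihood, TMM, filterByExpr with minimum count 10 and total 15) with genotype as the single factor and Benjamini-Hochberg adjustment over 14410 genes. The exact two-sided permutation test used CPM, with 0.00794 the smallest p it allows. Depth sets the precision: genes such as *H2-Oa*, with 53 to 103 counts per mouse, are limited by counting too. Correlations used log2 CPM with a prior count of 2. Mice of a genotype differed by more than sampling noise (chi-square per degree of freedom at least 9.51), so none is a copy. On simulated data both the edgeR step and the permutation step were checked. DESeq2 1.42.0 was an alternative, as were RLE, upper quartile and library size scaling, other filters, a replicate block, other forms of the edgeR test and leaving out each mouse. Coefficients of variation without single mice were added after the data were seen.

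The class II genes and all gene lists were chosen with earlier results of these data known. Genes named are the 9, in each other list those with an unadjusted p under 0.05 or else the smallest p plus the gene with the highest CPM, and the 8 most like *Cd74*. *Psmb8*, *Psmb9*, *Tap2*, *Brd2*, *Ms4a1*, *Ifng*, *Nfyc*, *Trac*, *Cd8b1*, *Mzb1* and *Pou2af1* were named after their values were seen. Some genes of the lists are not reported here by name, and list counts, medians and sums include them. No protein sequences were used here.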

Additional observations from a re-analysis of the deposited data

Results flagged for a closer look

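The named genes and the list sums, 56 quantities in all, were screened within each genotype for a mouse whose distance to its nearest neighbour exceeded 0.71 of the group's range. This held in 4 of 112 groups, and chance gives it in about 1 in 20, or 5.6. *H2-Oa* in miR-501KO mouse 3 was at 3.62 CPM, below 3.98 to 4.08 CPM in the other 4. *Cd86* in Pax7Cre mouse 1 was at 27.7 CPM, above 20.7 to 22.2 CPM. *Jchain* in Pax7Cre mouse 2 was at 1.53 CPM, above 0.423 to 0.735 CPM. The summed mature fiber markers of miR-501KO mouse 4 were at 53888 CPM, above 42639 to 45707 CPM. Of the class II genes themselves, *H2-Oa* alone was among these.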

How the results depend on the processing

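Under every alternative, each run with edgeR or DESeq2, 0 genes and 0 of the class II genes had an adjusted p under 0.05. The count of genes with an unadjusted p under 0.05, 55 higher and 96 lower with the main settings, became 36 higher with at least 10 counts in every mouse, 36 higher with library size scaling only, and 153 higher and 159 lower with no filter. Fits without a mouse gave 39 to 267 higher (267 without Pax7Cre mouse 2, 228 without Pax7Cre mouse 4) and 59 to 242 lower (59 without miR-501KO mouse 1, 186 without Pax7Cre mouse 2 and 242 without Pax7Cre mouse 4), between 5 and 9 class II genes above 0 and between 0 and 1 at an unadjusted p under 0.05 (*H2-Oa* without Pax7Cre mouse 1). All 9 stayed above 0 under the other scalings, filters and tests. With few counts, *H2-DMb2*, *H2-Oa*, *Jchain* and *Ifng* are limited by depth.

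A replicate block that takes mice of equal number as pairs gave 87 higher genes and 1 class II gene at an unadjusted p under 0.05, *H2-DMa* (0.23, edgeR unadjusted p = 0.0277). Of the other named genes, *Cd83* (0.27, edgeR unadjusted p = 0.0221) and *Cd44* (0.27, edgeR unadjusted p = 0.0391) came under it with the block, and *Jchain*, *Clec10a* and *Cd209a* were under it with and without the block. The labels do not say that the numbers are pairs. Equally numbered mice correlated at between −0.30 and 0.34 over genes, and not each mouse correlated best with its own number.

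Log2 fold changes changed sign for *Creb1* (−0.0019 with at least 10 counts in every mouse, −0.022 with library size only and −0.00043 with upper quartile factors), *B2m* (−0.0021 with library size only), *Cd22* (−0.00055 with at least 10 counts, −0.016 with library size only, −0.0032 with the replicate block) and *Cd5* (0.081 with the replicate block). In fits without a mouse, the signs of these genes changed in at least 1 fit, and their log2 fold changes ranged as follows: *H2-Ab1* from −0.021 to 0.23, *Cd74* from −0.027 to 0.23, *Ciita* from −0.0019 to 0.18, *H2-DMb1* from −0.072 to 0.14, *H2-DMb2* from −0.040 to 0.26, *H2-Ob* from −0.022 to 0.15, *Creb1* from −0.025 to 0.025, *Jak1* from −0.032 to 0.029, *Ctsb* from −0.075 to 0.050, *Tmem176b* from −0.0040 to 0.066, *B2m* from −0.053 to 0.091, *Cd274* from −0.057 to 0.35, *Lyz2* from −0.067 to 0.070, *Cd22* from −0.031 to 0.074, *Sdc1* from −0.067 to 0.15, *Tnnt2* from −0.059 to 0.11, *Mylpf* from −0.14 to 0.19, *Inpp5k* from −0.060 to 0.011, *Arl4d* from −0.0048 to 0.28, *Klrb1f* from −0.33 to 0.10, *Cd5* from −0.22 to 0.23, *Itgal* from −0.030 to 0.17 and *Tnfrsf4* from −0.074 to 0.20. Medians of lists ranged from −0.038 to 0.021 for the X and Y box factors, −0.0099 to 0.050 from interferon gamma to *Ciita*, −0.063 to 0.048 for invariant chain processing, −0.050 to 0.0045 for turnover, 0.064 to 0.21 for the further chains, 0.026 to 0.17 for CD74 partners, −0.012 to 0.12 for MHC class I and −0.057 to 0.18 for costimulation. Those of the marker lists ranged from −0.040 to 0.084 for macrophage, −0.062 to 0.11 for dendritic cell, −0.031 to 0.14 for B cell and −0.023 to 0.25 for T cell markers. For plasma cell markers the range was 0.25 to 0.42, for myogenic −0.060 to 0.11 and for mature fiber markers −0.10 to 0.32. The other named genes kept their sign, with ranges of 0.024 to 0.26 for *H2-Aa*, 0.023 to 0.26 for *H2-Eb1*, 0.084 to 0.30 for *H2-DMa*, 0.20 to 0.43 for *H2-Oa*, 0.084 to 0.28 for *H2-Eb2*, −0.15 to −0.026 for *Nfya*, 0.0027 to 0.083 for *Sppl2a*, 0.18 to 0.40 for *Cd83*, 0.17 to 0.35 for *Cd44*, 0.018 to 0.32 for *Tap1*, 0.0013 to 0.18 for *Cd86*, −0.28 to −0.12 for *Mrc1*, −0.44 to −0.29 for *Cd209a*, −0.41 to −0.30 for *Clec10a*, 0.036 to 0.16 for *Itgax*, 0.077 to 0.28 for *Cd79b*, −0.29 to −0.14 for *Cd4*, 0.74 to 1.37 for *Jchain*, −0.13 to −0.037 for *Cdkn1c*, 0.20 to 0.58 for *Myh1*, 0.0098 to 0.12 for *Mapkapk2* and −0.31 to −0.11 for *Cilp2*.

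In the fits without a mouse, r with *Cd74* ranged from 0.70 to 0.92 for *H2-Aa*, 0.74 to 0.93 for *H2-Eb1*, 0.81 to 0.94 for *Ciita* and 0.71 to 0.91 for *H2-DMb1*, each of which lost its call without Pax7Cre mouse 2. For *H2-DMb2* it ranged from 0.46 to 0.70, with a call without Pax7Cre mouse 3 or mouse 5. For dendritic cell markers it ranged from 0.69 to 0.87 and kept its call in 2 of 10, and it was 0.75 without removal of genotype means and 0.71 with library size only, both without a call. Ranges with a change of sign were −0.075 to 0.71 for macrophage, −0.54 to 0.44 for plasma cell, −0.54 to 0.57 for myogenic and −0.33 to 0.57 for mature fiber markers. The cause of these changes was not tested.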
